A study of Mus musculus with 6 samples.

Results

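The genes described here encode the proteins of the mitochondrial ribosome. They were taken as every gene with a single symbol that begins with Mrpl or Mrps followed by a digit, and each was read by its brightest probe set over the 6 arrays. There were 76 such genes, 47 of the large subunit by symbol (Mrpl) and 29 of the small subunit (Mrps), of 10824 genes tested. All 76 lay above the filter on low values, an intensity of 143, with means between 1093 for Mrpl10 and 10544 for Mrpl51. The cells were hematopoietic stem and progenitor cells from the bone marrow of 3 adult mice (278, 279 and 281) on a mixed 129-B6 background, sorted as LSK cells, which lack lineage markers and carry Sca-1 and c-Kit. Every mouse had the genotype Mx1Cre;Ergkd/+;R26Y, that is 1 knockdown allele of the transcription factor gene Erg, a Cre recombinase under the interferon-inducible Mx1 promoter, and a Rosa26 reporter that yields yellow fluorescent protein (YFP) after Cre action. By their labels, the YFP-positive cells have Erg back at its wild-type level, and the YFP-negative cells of the same animal have it reduced by about 40%. The groups were separated by YFP alone, so Erg dose, Cre action and the reporter cannot be told apart. Each group has 3 arrays, 1 per mouse, and no untreated wild-type mouse is among the 6 samples.

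Mitochondria keep their own ribosomes, which translate the few proteins encoded by mitochondrial DNA, all of them subunits of the respiratory chain and ATP synthase. The RNA of these ribosomes comes from the mitochondrial genome, while all of their proteins are encoded in the nucleus, made in the cytosol and imported. The small subunit binds the messenger RNA and holds the decoding site. The large subunit forms the peptide bond and passes the new chain through its exit tunnel to the inner membrane. Some of the proteins have a bacterial counterpart and others were added during the evolution of mitochondria. Hematopoietic stem cells rely on glycolysis to a large degree, and mitochondrial activity is known to increase as they leave quiescence.

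The brighter of 2 Erg probe sets averaged 2764 ± 124 in restored-labelled cells (SD, n = 3). It averaged 2810 ± 140 in knockdown-labelled cells, a log2 difference of 0.024 ± 0.080 that did not pass the test (adjusted p = 0.936, limma with Benjamini-Hochberg adjustment). The dimmer one averaged 1696 ± 159 in restored-labelled and 1573 ± 245 in knockdown-labelled cells, a difference of -0.11 ± 0.087. Because the labelled reduction was not seen at the brighter one, the groups are named by their labels throughout. Median intensities over all probe sets lay between 135 and 157 on the 6 arrays. The ratio of 3' to 5' control probe sets of Gapdh and beta-actin, a sign of RNA quality, was 0.71 (log2) on the restored-labelled array of mouse 279 and 0.47 to 0.54 on the other 5 arrays. That array stands apart in the results below, and the medians over all ribosomal protein genes, their subunits, classes and motif groups and the companion lists are also given without it. Of 10 listed markers of LSK and stem cells, 8 had a single-symbol probe set, and all 8 were above the filter. In mature neutrophil markers, 9 of 10 of which were measured and none of which was below the filter on all arrays, the summed intensity was 16742 to 44912 in the restored-labelled and 24278 to 49847 in the knockdown-labelled cells. Its lowest value was on the restored-labelled array of mouse 279 and its highest on the knockdown-labelled array of the same mouse. Erythroid markers summed to 2775 to 8451 and 2495 to 10466, and Hba-a1, Alas2, Slc4a1 and Epb42 were below the filter intensity on every array. B cell markers summed to 3926 to 5015 and 3433 to 5964, with Pax5 below the filter. T cell markers summed to 1429 to 1928 and 1473 to 1833, with Cd3g below it. Macrophage markers summed to 4602 to 6111 and 3226 to 5130, with C1qa below it.

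At their brightest probe sets and over the 3 mice together, most genes of the mitochondrial ribosome were slightly lower in the knockdown-labelled cells. No single gene passed the test, and within mouse 281 only 39 of the 76 were lower. Of the 76 genes 69 were lower and 7 higher, where 50.0% of all genes tested were lower. Their median difference was -0.079 on the log2(intensity + 16) scale, which is a change of -5.30%, and the middle 50% of the genes lay between -0.12 and -0.045. The median over all 10824 genes was -0.00015. Differences here and below are knockdown-labelled minus restored-labelled, fitted in limma with the mouse as a block. No member reached an adjusted p of 0.05 (0% of all genes did), and 0 of 76 reached an unadjusted p below 0.05, where 5.84% of all genes did (1.88% lower and 3.96% higher). Over all genes those calls were 203 lower and 429 higher, but 457 and 252 after quantile normalization and 828 and 143 with arrays centred on their median. The standard error of a single member was 0.084 in the median and 0.069 to 0.16 in all, so differences of this size could not be resolved gene by gene with 3 mice. In these bulk samples, less of a transcript per cell and fewer cells that carry it cannot be told apart.

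How many genes kept the lower sign in every mouse was counted next. In all 3 mice 31 of the 76 genes were lower, against 12.4% of all genes, and Mrps10 and Mrpl44 were higher in all 3, against 19.8% of all genes. For 17 of the 76 every knockdown-labelled array lay below every restored-labelled array, against 5.08% of all genes, and for 0 the groups separated the other way, against 10.1%. Of these 17 genes 14 are Mrpl genes. Leaving out an array or a mouse only loosens these criteria, so neither count could become smaller and neither shows stability. Without the restored-labelled array of mouse 279 the groups of 17 genes were separate, against 7.07% of all genes, and without mouse 279 33 genes were lower in both other mice, against 19.0%.

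The size of the shift depended on the mouse. The median difference of the 76 genes was -0.062 in mouse 278, -0.18 in mouse 279 and -0.0059 in mouse 281. Over all genes tested the same medians were 0.031, -0.044 and 0.032. Lower members numbered 61 of 76 in mouse 278 (41.3% of all genes), 71 in mouse 279 (55.2%) and 39 in mouse 281 (42.1%). Mouse 281 thus had about as many genes above as below 0, and mouse 279 had the widest gap.

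**Figure D1:**
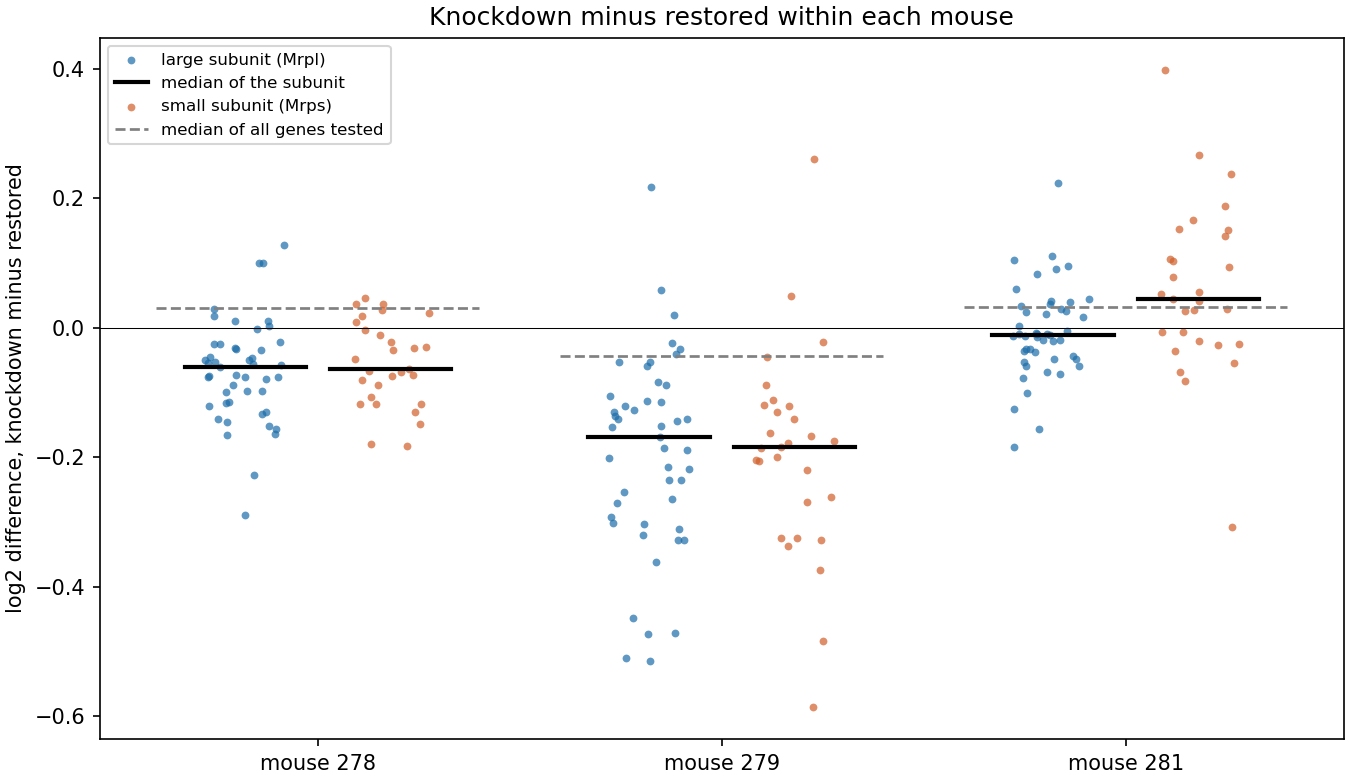
Difference of each of the 76 genes within each mouse (vertical axis, log2, knockdown minus restored), with large subunit genes in blue, small subunit genes in orange, black bars at the subunit medians and a dashed line at the median of all genes tested. The genes of both subunits lie mostly below 0 in mice 278 and 279, and in mouse 281 the median is -0.012 for the large and 0.044 for the small subunit.

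Single arrays were examined next. Each gene on an array was set against its mean on the other 5 arrays, since intensities of different probe sets cannot be compared with each other. The median of the 76 genes was 0.16 on the restored-labelled array of mouse 279, the array with the highest 3' to 5' ratio. On the restored-labelled arrays of mice 278 and 281 it was 0.012 and -0.046, and on the knockdown-labelled arrays of mice 278, 279 and 281 it was -0.062, -0.051 and -0.031. The restored-labelled array of mouse 279 was the highest of the 6 for 64 of the 76 genes, against 38.9% of all genes, and its median over all genes was 0.055. Next to it, the restored-labelled array of mouse 281 lay within the range of the knockdown-labelled arrays. In a fit of the other 5 arrays with no term for the mouse, 56 of 76 genes were lower with a median of -0.036, where 40.8% of all genes were lower and their median was 0.024. Without mouse 279 the median of the 76 genes was -0.023, with 55 lower, and that of all genes 0.029. The part of RNA quality and of the neutrophil markers, whose sum was also extreme in this mouse, was not tested.

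**Figure D2:**
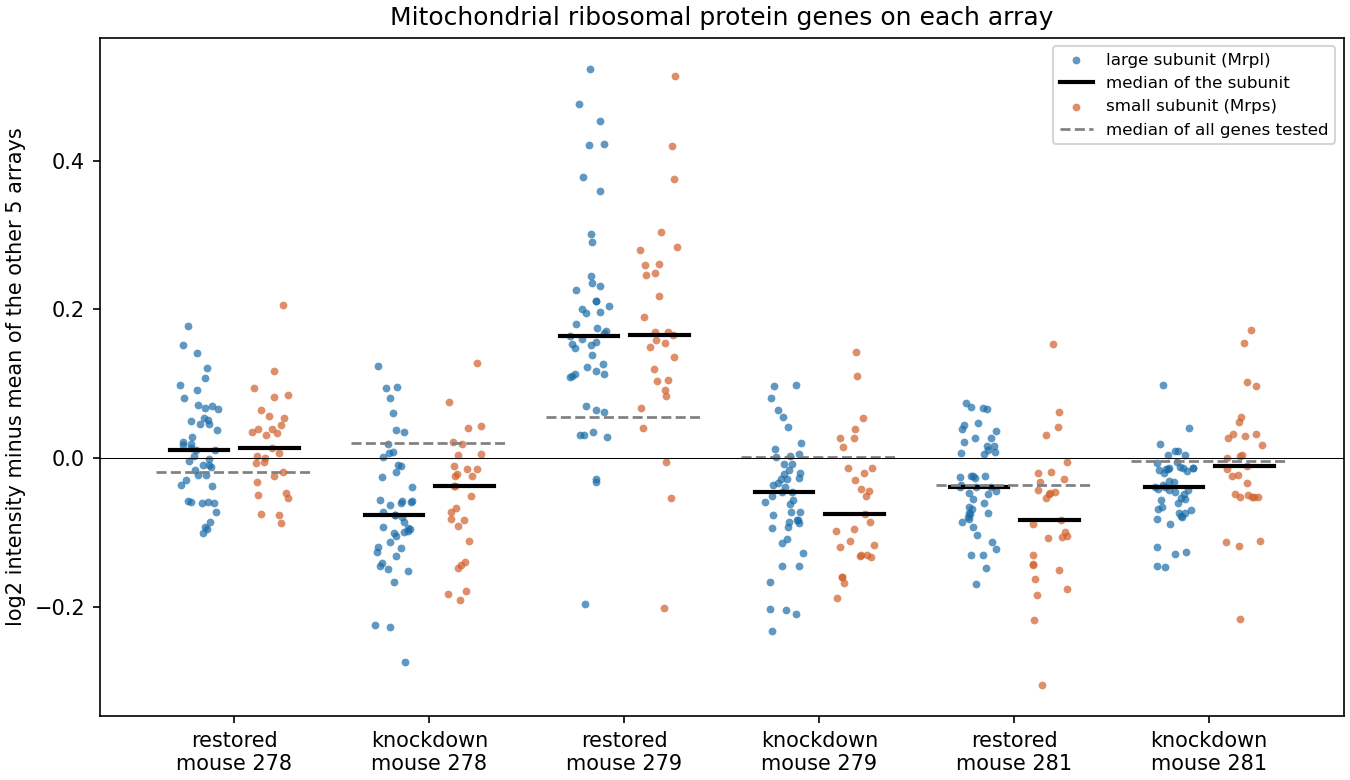
Each of the 76 genes on each array (vertical axis, log2 intensity minus the mean of the other 5 arrays), large subunit in blue and small subunit in orange, with black bars at the subunit medians and dashed lines at the median of all genes tested. The restored-labelled array of mouse 279 stands highest, with medians of 0.16 for the large and 0.17 for the small subunit, while the medians of the other arrays lie between -0.084 and 0.013.

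Most measured markers of the sorted population went the other way. The 8 LSK and stem cell markers summed to 43585 to 44378 on the restored-labelled and 46085 to 48407 on the knockdown-labelled arrays, without overlap. Of the 8, 7 were higher in all 3 mice, against 19.8% of all genes, and the median difference of the 8 was 0.11. Centring the arrays on their medians lowers every gene by the same amount and put the median of all genes at -0.11. The size of this shift in the markers therefore depends on the scale. Ly6a, which was on the list, had no single-symbol probe set. Kit, which encodes the c-Kit receptor of the gate, read 4374, 3972 and 4572 in the restored-labelled cells of mice 278, 279 and 281 and 5206, 5131 and 4670 in the knockdown-labelled cells. Its groups did not overlap, which held on the higher side for 3 of the 8 markers and for 10.1% of all genes. The difference of Kit, 0.22 ± 0.098, did not pass (adjusted p = 0.771, limma with Benjamini-Hochberg adjustment). The part of this shift in the results for the ribosomal genes was not tested.

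The large and the small subunit were compared next. Of the 47 Mrpl genes 44 were lower, with a median of -0.085, and of the 29 Mrps genes 25 were lower, with a median of -0.071. In the fit of 5 arrays that leaves out the highest array, restored-labelled mouse 279, both medians were closer to 0: 39 of 47 Mrpl genes were lower with -0.036, and 17 of 29 Mrps genes with -0.032, where 40.8% of all genes were lower. The difference between the subunit medians, large minus small, was -0.014 in the fit and 0.0019, 0.015 and -0.056 in mice 278, 279 and 281. Its sign was not the same in every mouse, and its spread between mice exceeded its size. In mouse 281 the small subunit median was 0.044 and the large subunit median -0.012. Lower in all 3 mice were 24 of 47 Mrpl and 7 of 29 Mrps genes, against 12.4% of all genes.

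Symbols do not map perfectly to place. Mrps30 and Mrps18a encode proteins that sit in the large subunit despite their names, and the Mrps36 protein is now counted with the oxoglutarate dehydrogenase complex rather than with the ribosome. Placed by structure, 46 of 49 large subunit genes were lower with a median of -0.081, and 23 of 26 small subunit genes with -0.075, so the gap between subunits became -0.0063. In the fit of 5 arrays 39 of 49 were lower with -0.035, and 17 of 26 with -0.037. Mrps30 itself read 5077, 5598 and 4827 in the restored-labelled and 5144, 5002 and 5186 in the knockdown-labelled cells of mice 278, 279 and 281, a difference of -0.013 ± 0.088 with overlapping groups. Mrps18a read 3448, 3655 and 3062 against 3300, 3314 and 3298, a difference of -0.032 ± 0.086, also with overlap. Mrps36 differed by 0.010 ± 0.070.

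The genes were also divided by whether the protein has a bacterial counterpart, and differences between these classes were not tested. The 45 genes of the bacterial core had a median of -0.079 with 42 lower, and the 30 mitochondria-specific genes -0.080 with 27 lower. In the fit of 5 arrays these were -0.037 with 36 lower and -0.027 with 20 lower. Within the small subunit the 10 mitochondria-specific genes had a median of -0.11 and the 16 core genes -0.066, while in the large subunit the order was turned, at -0.071 for 20 and -0.090 for 29 genes. In the fit of 5 arrays the small subunit classes had medians of -0.039 and -0.034, and the large subunit classes -0.011 and -0.038. On the restored-labelled array of mouse 279 the 10 mitochondria-specific small subunit genes lay at 0.25 and the other 3 classes between 0.14 and 0.17.

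Among large subunit genes the 6 with the smallest unadjusted p had differences between -0.14 and -0.23. Mrpl4 belongs to the proteins that line the exit tunnel. It read 2594, 3592 and 2530 in the restored-labelled cells of mice 278, 279 and 281 and 2326, 2509 and 2517 in the knockdown-labelled cells, a difference of -0.23 ± 0.13. Every knockdown-labelled array was below every restored-labelled array, but the difference within mouse 281 was -0.0076. Without mouse 279 the fitted difference was -0.082. Mrpl20, a core protein of the large subunit, read 3399, 3458 and 3066 against 3030, 2978 and 2905. Its groups did not overlap, and the 3 mice gave -0.17, -0.21 and -0.077, a fitted difference of -0.15 ± 0.075. Mrpl1, which forms the mobile stalk next to the site where transfer RNA leaves, read 2934, 2926 and 2647 against 2504, 2513 and 2624. It was lower by similar amounts in mice 278 and 279 (-0.23 and -0.22), and in mouse 281 the arrays lay within -0.012, so that its difference was -0.15 ± 0.085. The other Mrpl1 probe set above the filter, with a mean of 1560, had the opposite sign, at 0.098 ± 0.12.

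Mrpl10 and Mrpl12 encode the base and the tip of the stalk that recruits translation factors. Mrpl10 read 1088, 1223 and 1133 in the restored-labelled cells against 1004, 1022 and 1086 in the knockdown-labelled cells of mice 278, 279 and 281, and differed by -0.14 ± 0.080 without overlap. Mrpl12 read 5947, 7864 and 5927 against 5638, 5662 and 6175. Its groups overlapped, 1 array at 7864 stood far above the other 5, and its difference was -0.16 ± 0.13. Mrpl43, a mitochondria-specific protein, read 3912, 4312 and 3709 against 3522, 3491 and 3683 and differed by -0.15 ± 0.091. Mrpl47, a core protein at the end of the exit tunnel, read 5961, 6744 and 5922 against 5407, 5586 and 5847 and differed by -0.14 ± 0.086. Neither pair of groups overlapped, yet in mouse 281 both genes were near 0, at -0.010 and -0.018. The other Mrpl47 probe set above the filter, with a mean of 402, had the opposite sign, at 0.24 ± 0.15. The adjusted p of each of these 6 genes with the smallest p was 0.771 (limma with Benjamini-Hochberg adjustment).

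In the small subunit, Mrps24 had the smallest unadjusted p of all 76 genes. Its protein is the counterpart of a bacterial protein at the entry of the messenger RNA channel. It read 3795, 4681 and 4337 in the restored-labelled cells of mice 278, 279 and 281 and 3570, 4059 and 3501 in the knockdown-labelled cells. The groups overlapped, although each mouse was lower, at -0.088, -0.20 and -0.31. Its difference was -0.20 ± 0.082 (adjusted p = 0.771, limma with Benjamini-Hochberg adjustment). Mrps35, a mitochondria-specific protein, read 3494, 3877 and 3293 against 3192, 3085 and 3109. Its groups did not overlap, with an SD of 56.4 in the knockdown-labelled and 296 in the restored-labelled cells, for a difference of -0.18 ± 0.087.

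Mrps10 was the clearest exception. Its protein is a core protein of the small subunit, and it was 1 of 7 members with a positive difference. It read 2959, 2491 and 2528 in the restored-labelled and 3017, 2986 and 2881 in the knockdown-labelled cells of mice 278, 279 and 281. All 3 mice were positive (0.028, 0.26 and 0.19), although the groups overlapped, and the difference was 0.16 ± 0.084 (adjusted p = 0.771, limma with Benjamini-Hochberg adjustment). Unlike most members it was low on the restored-labelled array of mouse 279, at -0.20 from the other arrays. Mrpl32, a core protein of the large subunit, was the other member clearly low there, at -0.20, and read 4254, 3586 and 4083 against 4109, 4173 and 3948.

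At their brightest probe sets, the other 6 genes with a positive difference were small in size or mixed between mice. Mrps5, the counterpart of a bacterial protein that bears on decoding accuracy, differed by 0.12 ± 0.12 and was positive in mouse 281 alone (-0.0038, -0.022 and 0.40). The dimmer Mrps5 probe sets above the filter differed by 0.40, 0.22 and 0.44, and all but the first of them were positive in each mouse. Mrpl44, whose protein has a fold related to ribonuclease III, differed by 0.067 ± 0.073 and was positive in each mouse (0.13, 0.058 and 0.016). The other Mrpl44 probe sets above the filter differed by 0.020, -0.012 and 0.18, and none of them was positive in each mouse. The differences of Mrpl32, Mrps31, Mrpl48 and Mrps36 lay between 0.010 and 0.040. Centring the arrays on their medians put the median of all genes at -0.11. Then Mrpl44, Mrpl32, Mrps31, Mrpl48 and Mrps36 turned negative and 74 of 76 members were lower, where 75.0% of all genes were. This centring lowers every gene by the same amount, so it bears on the scale and not on these genes. With it 4 of 76 were lower at an unadjusted p below 0.05 (limma), against 7.65% of all genes.

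**Figure D3:**
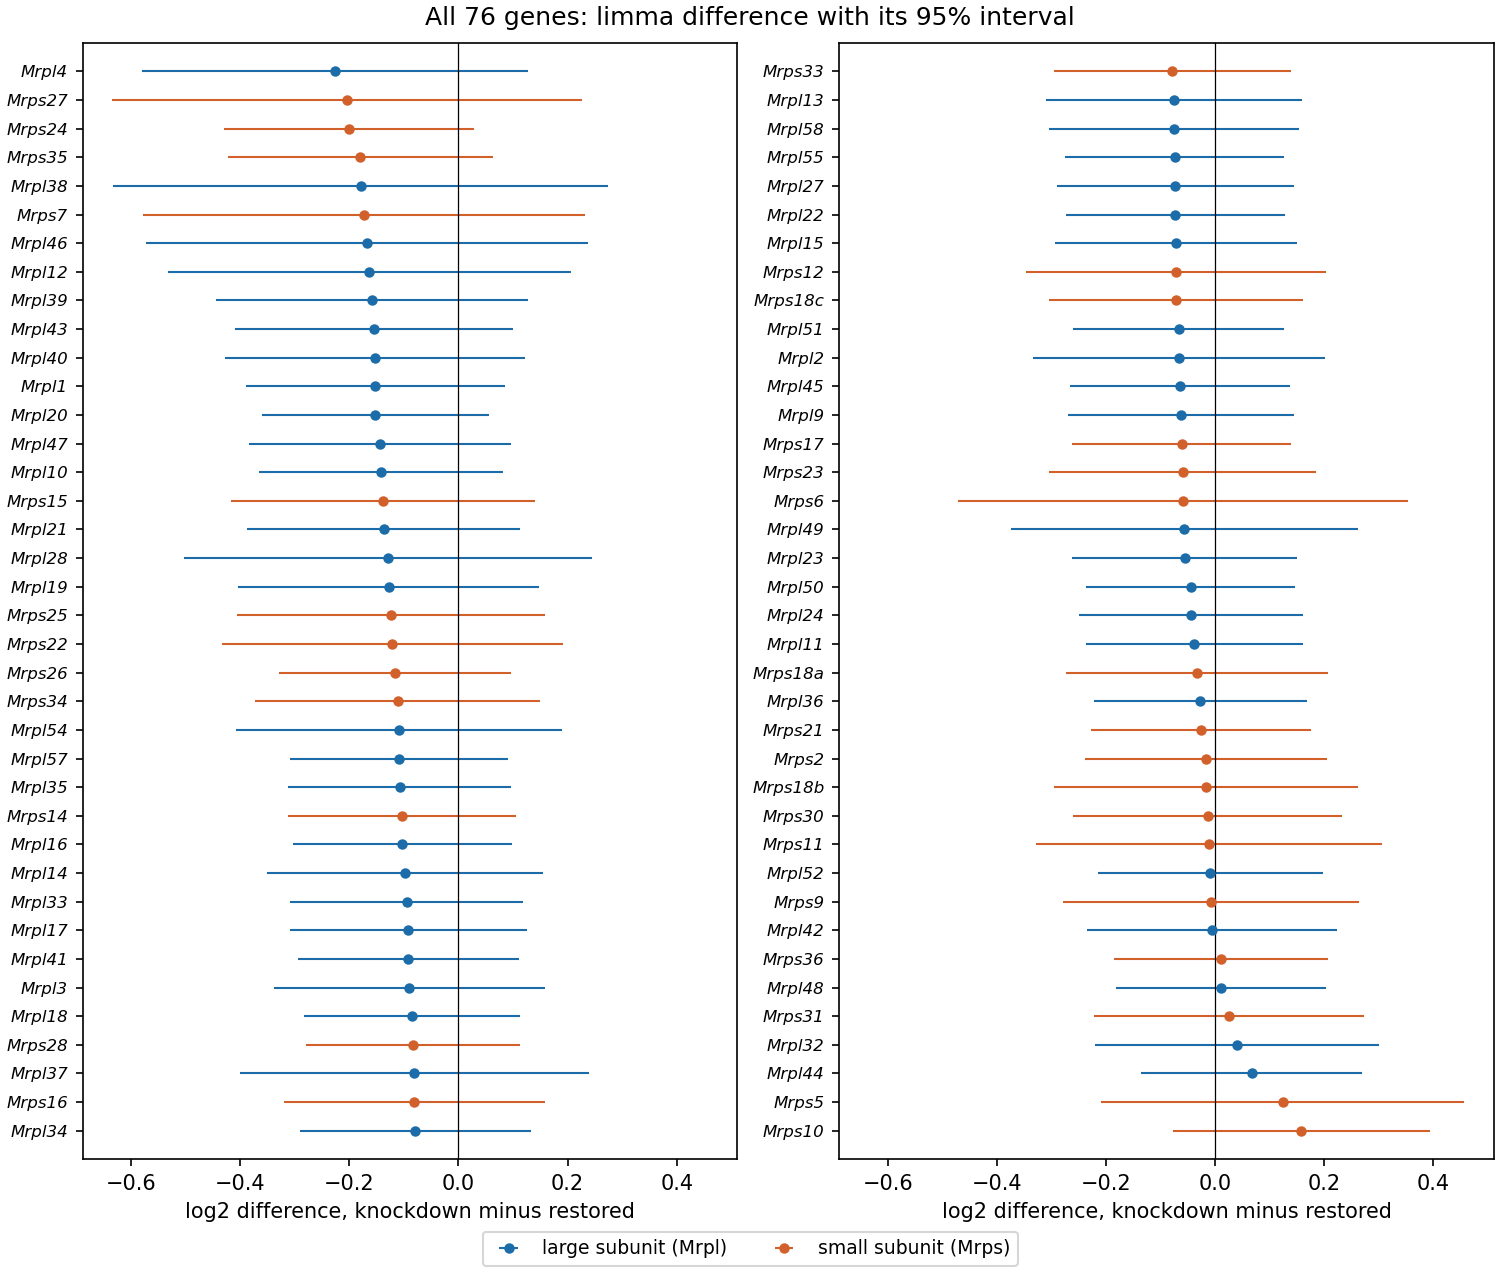
Difference of each of the 76 genes (horizontal axis, log2, knockdown minus restored) with its 95% interval from limma, sorted from the lowest to the highest, large subunit in blue and small subunit in orange. Most points lie left of 0, from -0.23 for Mrpl4 to 0.16 for Mrps10, and every interval includes 0.

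Spread over the 6 arrays was small for most members. The median range between the lowest and the highest array was 0.25 (log2), against 0.41 over all genes tested. All members averaged at least 1093, while the filter for the genes tested was at 143, and the part of brightness was not tested. The steadiest was Mrpl48, a protein of the central protuberance, with a range of 0.043 and intensities of 5163, 5074 and 5217 in the restored-labelled and 5226, 5143 and 5196 in the knockdown-labelled cells of mice 278, 279 and 281. The 6 arrays were almost level at this probe set, and the groups overlapped. Another Mrpl48 probe set, with a mean of 5088, read 4885 to 5363 and was lower in each mouse, at -0.076 ± 0.082. The widest ranges were those of Mrpl4 at 0.62, Mrps27 at 0.59 and Mrpl38 at 0.58. Mrps27, a pentatricopeptide repeat protein, read 1748, 2424 and 1695 against 1652, 1609 and 1761. Mrpl38, a protein of the central protuberance, read 1532, 1877 and 1330 against 1251, 1349 and 1555. In each of these 3 genes the restored-labelled array of mouse 279 was the highest, at 0.52, 0.51 and 0.42 from the other arrays.

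Several probe sets of 1 gene did not always tell the same story. The 76 genes had 156 probe sets in all, of which 138 lay above the filter, and 34 genes had more than 1 of these. In 20 of the 34 the probe sets gave differences of both signs. Of the 62 probe sets that were not the brightest of their gene, 34 were lower and 28 higher, with a median of -0.020. The 31 of them with a mean intensity of at least 1000 had 22 lower and a median of -0.043, and the 31 dimmer ones had 19 higher and a median of 0.080. The count of 69 lower genes therefore holds for the brightest probe sets, and when all probe sets of a gene above the filter were averaged 62 of 76 were lower, with a median of -0.070.

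The restored-labelled array of mouse 279 split the probe sets of single genes as well. In 16 of the 34 genes at least 1 probe set was higher and at least 1 lower there than on the other arrays. The brighter Mrpl1 probe set read 2926 on that array, near the top of its range, and the second one 1289, the lowest of its 6 arrays, which otherwise read 1409 to 1794. Of Mrpl51, the member with the brightest probe set, that probe set read 11243 on the array, the highest of the 6, and another read 380, the lowest of 6 that otherwise ranged from 498 to 763. Mrps5 had 4 probe sets above the filter, the brightest at 0.17 and the others at -1.05, -0.27 and -0.15 from the other arrays. The second probe set of Mrps5 read 331 there and 647 to 824 elsewhere. Mrpl28 differed from these, since its 3 probe sets read 3924, 3535 and 3662 on this array and at most 2894, 2773 and 2596 on the others. Where on the transcripts these probe sets lie was not analysed here. The part of the 3' to 5' ratio of this array, 0.71 against 0.47 to 0.54, was not tested.

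**Figure D4:**
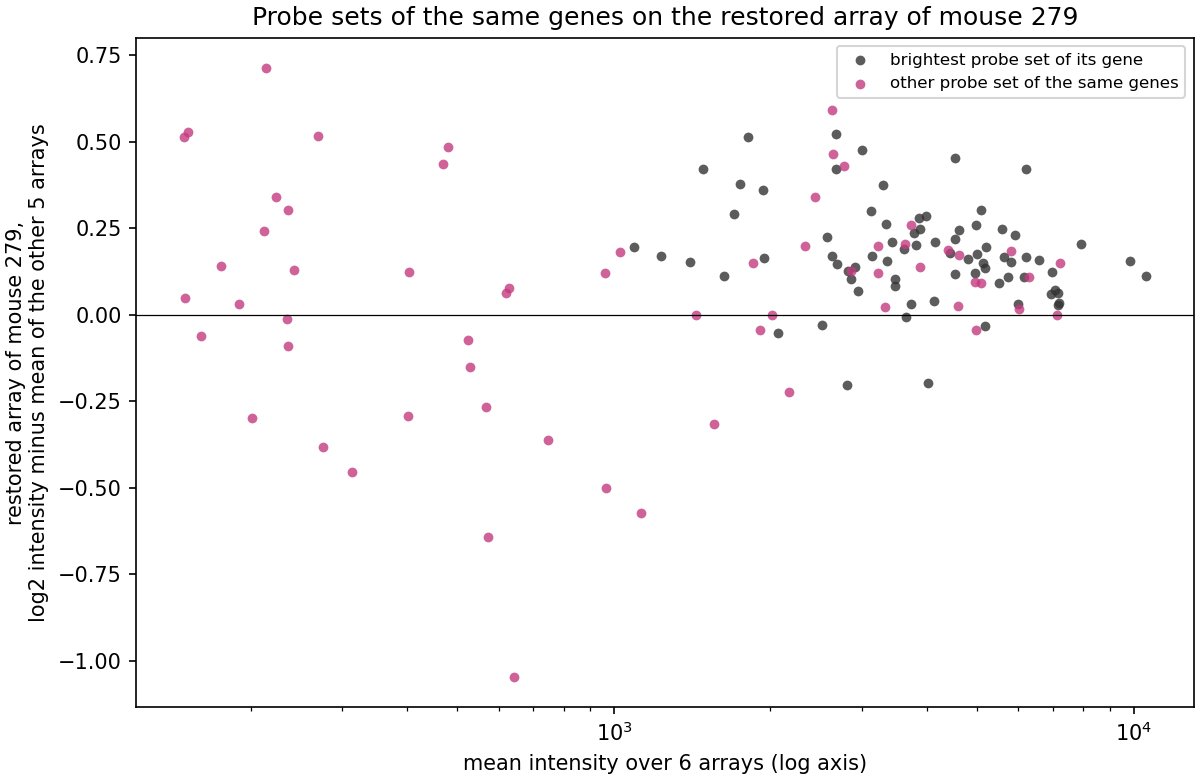
The 138 probe sets of the 76 genes above the filter, by mean intensity over 6 arrays (horizontal, log axis) and by log2 intensity on the restored-labelled array of mouse 279 minus the mean of the other 5 arrays (vertical). The brightest probe set of each gene (dark) lies above 0 in 70 of 76 genes, and the other probe sets (magenta) lie on both sides, down to -1.05.

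The 3 probe sets with an unadjusted p below 0.05 in a limma fit of 19338 single-symbol probe sets were all dimmer ones, and were chosen for description after their values were seen. They are 3 of 138, where 5.87% of the probe sets in that fit reached this level, and the adjusted p of each was 0.801 (limma with Benjamini-Hochberg adjustment). A probe set of Mrps5 read 425, 473 and 431 in the restored-labelled and 523, 749 and 569 in the knockdown-labelled cells of mice 278, 279 and 281, a difference of 0.44 ± 0.11 without overlap. A probe set of Mrpl51 read 654, 380 and 531 against 763, 498 and 601, a difference of 0.26 ± 0.090 with overlap. A probe set of Mrpl27 read 265, 272 and 223 against 221, 213 and 150, a difference of -0.37 ± 0.097 without overlap. In Mrps5 and Mrpl51 the positive sign went with a brightest probe set at 0.12 and -0.066.

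Other genes of mitochondrial translation were taken from lists of known factors. Of 12 translation factors 11 were lower, with a median of -0.13, and 0 reached an unadjusted p below 0.05 (5.84% of all genes did). The leading ones were Guf1, a back-translocating elongation factor, at -0.21 ± 0.11, and Pdf, which removes the formyl group from new chains, at -0.27 ± 0.16. Of 16 mitochondrial aminoacyl-tRNA synthetases 12 were lower, with a median of -0.13 and 1 at an unadjusted p below 0.05. That was the tyrosyl enzyme gene Yars2, which read 3010, 3614 and 3327 in the restored-labelled and 2642, 3132 and 2749 in the knockdown-labelled cells of mice 278, 279 and 281. Each mouse was lower by 0.19 to 0.27 but the groups overlapped, and the difference of -0.22 ± 0.071 had an adjusted p of 0.771 (limma with Benjamini-Hochberg adjustment). The tryptophanyl enzyme gene Wars2 differed by -0.18 ± 0.082.

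Factors that assemble the ribosome or modify its RNA were more divided. Of 26 measured, 17 were lower and 9 higher, with a median of -0.099. Gtpbp6, a GTPase that acts on the large subunit, was lower in each mouse at -0.28 ± 0.094, and Gtpbp10, a GTPase of large subunit assembly, stood on the other side at 0.36 ± 0.14. Gtpbp10 read 1165, 735 and 1197 in the restored-labelled and 1571, 1131 and 1230 in the knockdown-labelled cells of mice 278, 279 and 281, with overlap. Of 12 genes of mitochondrial transcription and DNA maintenance 9 were lower, with a median of -0.063. The 2 with the smallest unadjusted p went opposite ways. The RNA polymerase gene Polrmt was lower, at -0.26 ± 0.10, and the termination factor family gene Mterf1a was higher in each mouse, at 0.14 ± 0.084. The 4 measured ribosome subunits without an Mrp symbol were all lower, from -0.018 for Dap3 to -0.11 for Ptcd3 and -0.13 for Gadd45gip1.

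Each of these lists also peaked on the restored-labelled array of mouse 279. Their medians there were 0.27 for translation factors, 0.39 for synthetases, 0.26 for assembly factors, 0.11 for transcription and maintenance and 0.25 for the 4 further subunits, against 0.055 for all genes tested. In the fit of the other 5 arrays, the medians of the differences were -0.057, -0.0036, 0.0044, -0.017 and 0.0047, where that of all genes was 0.024. The ribosomal protein genes, at -0.036, had a lower median in that fit than each of these lists but the translation factors.

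Promoters were examined for short motifs, because ERG is an ETS family factor and because ETS factors and YY1 are known regulators of nuclear genes for mitochondrial proteins. Of the 76 genes 67 were found in a RefSeq table of promoters (GRCm38.p6), which runs from 250 bases before to 50 bases after each start. The ETS core CCGGAAG, on either strand, was present in 25 of 67 genes (37.3%), against 21.1% of 8756 other tested genes and 9.93% of all 27025 genes in the table. The YY1 core AAGATGG, on either strand, was present in 13 of 67 (19.4%), against 8.65% and 7.28%. Members had 1.09 promoter windows per gene and the other tested genes 1.28. The last 3 letters of the ETS core are also the first 3 of the YY1 core, so matches can overlap. A match describes the sequence and says nothing of binding.

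The differences were then read by motif. Of the 25 members with the ETS core 24 were lower, with a median of -0.078, and of the 42 without it 36 were lower, with a median of -0.065. On the restored-labelled array of mouse 279 the medians were 0.15 and 0.16. Members with and without the YY1 core had medians of -0.056 and -0.076. In the fit of 5 arrays 20 of 25 members with the ETS core were lower with a median of -0.036, and 28 of 42 without it with -0.028. For the YY1 core these medians were -0.020 and -0.034.

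Examples from members described above show the matches. Mrps27, with a wide range over arrays, carries the ETS core 48 bases before its start, and Mrpl43, whose groups did not overlap, carries it 56 and 12 bases before. The 250 bases before the start are given for both, from chr13:99344536-99344785 (plus strand) and chr19:45006443-45006692 (minus strand). Shorter windows show the ETS core of Mrpl48, the member with the steadiest brightest probe set (chr7:100583147-100583175, minus strand), and of Mrps26 (chr2:130563732-130563760, plus strand). They also show the YY1 core of Mrps24, the member with the smallest p (chr11:5707652-5707676, minus strand). The table gives Mrpl48 4 start sites, and the core is at 1 of them. The groups of Mrps26 were narrowly separate, with the lowest restored-labelled array at 3564 and the highest knockdown-labelled array at 3561. All are in GRCm38.p6, 5′ to 3′ on the strand of the gene, with the matched core in capitals.
Mrps27: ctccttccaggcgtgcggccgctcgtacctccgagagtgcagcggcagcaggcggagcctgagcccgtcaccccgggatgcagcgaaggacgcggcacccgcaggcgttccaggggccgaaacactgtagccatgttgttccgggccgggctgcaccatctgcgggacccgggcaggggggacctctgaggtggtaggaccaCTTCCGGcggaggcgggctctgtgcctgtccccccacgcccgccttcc
Mrpl43: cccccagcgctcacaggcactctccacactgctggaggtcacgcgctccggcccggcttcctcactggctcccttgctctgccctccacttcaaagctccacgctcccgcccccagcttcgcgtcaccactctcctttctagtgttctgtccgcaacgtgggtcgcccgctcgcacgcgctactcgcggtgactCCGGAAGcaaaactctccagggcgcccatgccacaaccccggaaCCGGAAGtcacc
Mrpl48: ggttttaaaaaCTTCCGGaaccaagatgc
Mrps26: ctccgcggccaCTTCCGGgccgggcgcag
Mrps24: cgcgccggcccAAGATGGcgtggtc

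Of the genes with an ETS core shown, Mrps26, a mitochondria-specific small subunit protein, differed by -0.12 ± 0.076, while Mrpl48 stood at 0.010 ± 0.069 at its brightest probe set. Mrpl39, which resembles part of a threonyl-tRNA synthetase and has neither core in its window, differed by -0.16 ± 0.10. It read 4280, 5856 and 4293 in the restored-labelled and 3947, 4556 and 4300 in the knockdown-labelled cells of mice 278, 279 and 281, so that its groups overlapped and mouse 279 held most of the gap.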

How the data were processed

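The authors deposited 1 linear intensity per probe set and array, from Affymetrix arrays after NuGEN Ovation V2 amplification, per the labels' protocols. How they corrected the background, summarized probes and normalized is not given in these sources. An array value has no count behind it, so the number of arrays (6) limits the precision. Of 45101 probe sets 64 controls were left out. On the scale log2(value + 16), the 22519 probe sets whose mean reached the median (an intensity of 143) were kept, and each of 10824 genes with a single symbol in the platform annotation was represented by its brightest probe set. Because of the added 16, differences of dim probe sets are understated. The comparison was fitted over all genes with limma 3.58.1 in R 4.3.3 with the mouse as a block, with p-values adjusted by Benjamini-Hochberg and a threshold of 0.05, and was tested on simulated data. Both populations of a pair came from 1 animal, per the labels. Deviations of same-mouse arrays from their group means correlated at 0.44, -0.17 and -0.29 for mice 278, 279 and 281. Medians and counts over members are descriptions without a test. A search for NRF1 motifs that had been planned is not reported here. The members, lists and motifs were chosen with earlier results of these data known. Values are given for Erg, the 8 members with the smallest unadjusted p in each direction (7 on the higher side), the 3 with the widest range, members whose probe sets disagree (as counts with examples), and the 2 leading genes of companion lists. Other named members were chosen after their values were seen. Alternatives were no block, quantile normalization, centring on the median, 2 other filters, the mean over probe sets, added values of 1 and 64, eBayes with trend and robust settings, leaving out each mouse, 5 arrays without the mouse term, and subunits by structure.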

Additional observations from a re-analysis of the deposited data

How the results depend on the processing

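Over 13 alternative settings the median of the 76 genes stayed negative, and relative to the median of all genes it ran from -0.11 to -0.052. Centring each array moved the median to -0.19 for all members and -0.19 for the large subunit, and 4 members (Mrpl20, Mrpl4, Mrps24 and Mrps35) then had an unadjusted p below 0.05 on the lower side, against 0, while 7.65% of all genes did and the median relative to all genes was the same as without centring, at -0.078. That count was 1 (Mrps24) with trend and robust settings, where 155 of all 10824 genes were lower at that level. It was 0 to 1 when a mouse was left out, where 107 to 216 of all genes were. The count on the higher side was 1 (Mrps5) with the mean over probe sets, where 431 of all genes were higher at that level. Leaving out each mouse gave medians of -0.12 to -0.023. The count of members past an adjusted p of 0.05 was 0 under every one of the 13 settings in limma. The fit with no replicate block changed no call of a member: the count lower at unadjusted p below 0.05 was 0 with and without it. Over all genes 201 were lower and 433 higher at that level without the block, against 203 and 429 with it, and 0 passed the adjusted threshold in either fit. The difference of Erg, 0.024, was -0.083 with centred arrays, -0.045 with the mean over probe sets, and -0.025 to 0.073 when a mouse was left out.

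Of 195 values of 15 named members under these settings 13 turned their sign, 1 of them for a lower member. Centring, which lowers every gene alike by construction, gave 5 of these: -0.040 for Mrpl44, -0.067 for Mrpl32, -0.081 for Mrps31, -0.096 for Mrpl48 and -0.096 for Mrps36. The cause of the others was not tested. The mean over probe sets gave 0.050 for Mrpl47 and -0.069 for Mrpl48. The 5 arrays without the mouse term gave -0.032 for Mrpl32 and -0.00046 for Mrpl48. Leaving out a mouse gave -0.049 to 0.085 for Mrpl32, -0.0093 to 0.021 for Mrps36, -0.013 to 0.20 for Mrps5 and -0.037 to 0.099 for Mrps31. Counts chosen after seeing the data, without the restored-labelled array of mouse 279 or without mouse 279, were 17 and 33 against 17 and 31, and by construction they could not be smaller. Over all genes, the count at an unadjusted p below 0.05 was 632, and 1083 with no filter, 971 with centred arrays and 258 without mouse 278. The dimmest member averaged 1093 against a filter intensity of 143, and the number of mice limits these results.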
